A study of Mus musculus with 9 samples.

Results

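The regions described here are promoters that carried an open chromatin peak in sorted Sox2-EGFP+ cells of the embryonic mouse cochlear duct and none in Sox2-EGFP- cells. They were chosen by peak presence itself: the peaks of all 9 deposited ATAC-seq lists were merged within 100 bp on the autosomes, and a merged region was kept where it touched the window that starts 1000 bp before a protein-coding transcription start site and ends 100 bp after it, held a peak in at least 2 Sox2-EGFP+ lists and held none in any Sox2-EGFP- list. Of 68078 merged regions, 14231 lay at promoters and 14106 of these had peaks in at least 2 Sox2-EGFP+ lists. The rule left 2377 members, 16.9% of the 14106, in the promoter windows of 2213 genes, which are 10.4% of the 21281 autosomal protein-coding genes. The other 11729 are called shared promoter regions below.

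ATAC-seq uses a transposase that cuts DNA where nucleosomes are absent, so that a peak marks accessible chromatin. All cells came from mice of strain B6;129S-Sox2tm2Hoch/J, heterozygous for an EGFP knocked into the coding region of *Sox2*, and the Sox2-EGFP- cells carry this allele as well. Cochlear ducts were pooled, with 1 litter for each Sox2-EGFP+ replicate, and cells with the brightest EGFP were sorted from cells without EGFP. Weaker EGFP occurs in some nonsensory cells of the duct, and bright EGFP occurs in glia of the spiral ganglion, which was dissected away. The Sox2-EGFP+ cells gave 2 lists each at embryonic days E12, E14.5 and E16, and the Sox2-EGFP- cells gave 1 list at E14.5 (replicate 2) and 2 lists at E16, so no Sox2-EGFP- sample matches E12. Samples were grouped by title; a separate cell type tag contradicts the title of 3 E16 samples, Sox2-EGFP+ replicate 2 and both Sox2-EGFP- replicates.

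Prosensory cells are the Sox2-expressing progenitors in the floor of the cochlear duct that give rise to hair cells and supporting cells. Like the rest of the duct they are epithelial. E-cadherin (*Cdh1*), claudins and keratins 8 and 18 hold such cells together. Esrp proteins direct epithelial splicing, and Grhl and Ovol transcription factors help to maintain the epithelial state. Zeb and Snai repressors, which act in mesenchyme, bind the E-box CAGGTG in promoters such as that of *Cdh1*. Most promoters of broadly used genes are rich in CpG dinucleotides and open in nearly every cell type, whereas promoters with few CpG dinucleotides are more often open in particular cell types.

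The bases just upstream of the start site are shown for 4 members because they hold the E-box found in most epithelial members. Of 16 upstream stretches read outside annotated exons, for members in most lists, 10 hold it, and the 4 shown, all of epithelial genes, were picked after this was seen. They are from mm9, written 5′ to 3′ on the strand of the gene, with CAGGTG and its complement CACCTG in capitals.
*Cdh1* (chr8:109127051-109127250, + strand): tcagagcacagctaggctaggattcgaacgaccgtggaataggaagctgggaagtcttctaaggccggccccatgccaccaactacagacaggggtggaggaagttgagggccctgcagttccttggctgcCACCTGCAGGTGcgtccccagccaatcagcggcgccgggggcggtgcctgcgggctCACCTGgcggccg
*F11r* (chr1:173367466-173367665, + strand): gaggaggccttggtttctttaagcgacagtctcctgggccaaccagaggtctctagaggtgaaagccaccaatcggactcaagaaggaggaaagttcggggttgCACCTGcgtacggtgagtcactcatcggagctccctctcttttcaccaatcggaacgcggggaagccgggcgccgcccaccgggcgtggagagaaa
*St14* (chr9:30939439-30939638, - strand): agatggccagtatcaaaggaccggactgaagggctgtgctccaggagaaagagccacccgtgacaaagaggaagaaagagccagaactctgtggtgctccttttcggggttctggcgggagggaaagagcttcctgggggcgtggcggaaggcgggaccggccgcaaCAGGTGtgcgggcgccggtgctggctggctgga
*Krt8* (chr15:101834774-101834973, - strand): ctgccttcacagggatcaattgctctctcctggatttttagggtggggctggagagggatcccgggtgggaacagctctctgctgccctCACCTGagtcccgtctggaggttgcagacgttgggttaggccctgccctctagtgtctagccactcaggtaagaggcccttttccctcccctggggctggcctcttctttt

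A second set shows the range of CpG content among the members with peaks in all 6 Sox2-EGFP+ lists, with every CpG dinucleotide in capitals. The *Otog* stretch holds 0 CpG dinucleotides in 200 bases, that of *Ttll10* holds 3 and that of *Prkcz* holds 21.
*Otog* (chr7:53496157-53496356, + strand): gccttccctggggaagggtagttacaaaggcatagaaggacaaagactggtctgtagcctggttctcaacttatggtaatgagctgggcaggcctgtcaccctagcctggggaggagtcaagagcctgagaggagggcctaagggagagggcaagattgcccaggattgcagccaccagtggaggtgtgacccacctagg
*Ttll10* (chr4:155433454-155433653, - strand): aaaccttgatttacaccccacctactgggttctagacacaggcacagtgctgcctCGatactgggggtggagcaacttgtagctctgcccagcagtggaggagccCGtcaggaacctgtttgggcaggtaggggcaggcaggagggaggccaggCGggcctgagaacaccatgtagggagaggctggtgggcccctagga
*Prkcz* (chr4:154735471-154735670, - strand): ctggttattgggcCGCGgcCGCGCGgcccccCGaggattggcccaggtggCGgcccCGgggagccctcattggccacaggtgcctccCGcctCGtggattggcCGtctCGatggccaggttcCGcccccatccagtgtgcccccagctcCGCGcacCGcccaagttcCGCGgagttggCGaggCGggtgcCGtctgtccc

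Epithelial genes were frequent among the members. Of 35 autosomal epithelial genes in the list used, 34 had at least 2 Sox2-EGFP+ peaks at a promoter. A member promoter was found for 25, which are 71.4% of the 35, beside 10.4% of all autosomal protein-coding genes. These 25 are 73.5% of the 34, beside 16.1% of all 13748 genes with at least 2 such peaks. They included the adhesion gene *Cdh1*, the tight junction genes *Cldn4*, *Cldn6*, *Cldn7*, *Cldn9*, *Marveld3*, *Ildr1* and *F11r*, the keratins *Krt7*, *Krt8* and *Krt18*, the splicing regulators *Esrp1* and *Esrp2*, the transcription factors *Grhl2*, *Grhl3*, *Ovol1* and *Ovol2*, and the membrane protease *St14* with its inhibitor *Spint1*. Of the 25 genes, 24 had no promoter region with a Sox2-EGFP- peak, and *Ovol2* had one beside its member. This holds for the promoter windows only. Outside them, a region with a Sox2-EGFP- peak lay 307 bp from the member of *Grhl2*, 656 bp from that of *Krt8* and 813 bp from that of *Esrp2*. Another 9 epithelial genes had shared promoter regions only, among them *Epcam* and *Cldn3*, and *Krt19* had no promoter region. The list was set up with earlier results of these data known, so its count is a description.

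Peak presence at these 35 promoters can also be given list by list. Each of the 3 Sox2-EGFP- lists, which hold 23302 to 23899 peaks, had a peak at the promoters of 10 of the 35 genes. The E12 Sox2-EGFP+ lists, with 13817 and 7577 peaks, had a peak at 20 and 12 of them. At E14.5 the Sox2-EGFP+ lists had a peak at 34 and 24, and at E16 at 33 and 33. These are the presences that the rule used: with 24 genes that have no Sox2-EGFP- promoter peak and *Krt19* without a region, a Sox2-EGFP- list could reach 10 genes at most, so the order of the lists is no further evidence. Of the 3 samples with a contradicting tag, E16 Sox2-EGFP+ replicate 2 had 33 of these genes and both E16 Sox2-EGFP- replicates had 10. For the 22 mesenchyme genes the counts were 14 to 16 in the Sox2-EGFP- lists and 2 to 16 in the Sox2-EGFP+ lists. The study reports accessible otic fibroblast marker genes in its Sox2-EGFP- cells and holds it possible that the sorted cells contain fibroblasts. Whether such cells contributed to the lack of epithelial peaks in the Sox2-EGFP- lists was not tested.

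Heights are given below as the percentile of a peak within its own list, ranked by −log10 p, with 100 for the highest peak. The *Cdh1* region (chr8:109126986-109128255, across the start site) stood at percentiles 94.1 and 78.7 in E12 replicates 1 and 2, 98.9 and 91.1 in the E14.5 replicates and 92.9 and 98.0 in the E16 replicates. *Cldn9*, a claudin needed for hearing, stood at 88.5, 69.3, 89.3, 92.2, 87.3 and 95.6 in the same order (chr17:23820681-23821874). *Ildr1*, a tricellular junction gene that is also a deafness gene, stood at 82.5, 76.3, 91.6, 73.5, 87.4 and 93.1 (chr16:36693842-36694543). These promoters were thus among the higher peaks of every Sox2-EGFP+ list from E12 on and had no peak in any Sox2-EGFP- list.

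The regulators of the epithelial state ranked lower in the lists than these junction genes, which are among the 10 first-ranked members. Other junction genes lay on both sides of the regulators. The mean percentile over the 6 lists was 70.1 for *Grhl2* and 62.7 for *Esrp1*, beside 78.3 for *F11r*, 39.7 for *Cldn4* and 28.0 for *Marveld3*. The *Grhl2* region (chr15:37161880-37163212) stood at percentiles 65.0 and 37.1 at E12, 84.6 and 62.0 at E14.5 and 82.6 and 89.5 at E16. *Esrp1* (chr4:11313473-11314702) stood at 51.6 and 17.1, 76.6 and 66.7, and 83.5 and 80.4. *Grhl3* (chr4:135129101-135129798) and *Ovol1* (chr19:5559886-5561242) had no E12 peak and none in E14.5 replicate 2, and stood at 85.8 and 66.8 in E14.5 replicate 1, at 24.9 and 66.0 in E16 replicate 1 and at 83.6 and 77.1 in E16 replicate 2. The E12 lists and that of E14.5 replicate 2 are the short Sox2-EGFP+ lists, so a missing peak there was not read as closed chromatin. Over the 26 member regions of epithelial genes, 17 (65.4%) had peaks in 4 or more Sox2-EGFP+ lists and 13 (50%) had an E12 peak, beside 549 (23.1%) and 273 (11.5%) of all 2377 members.

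**Figure D1:**
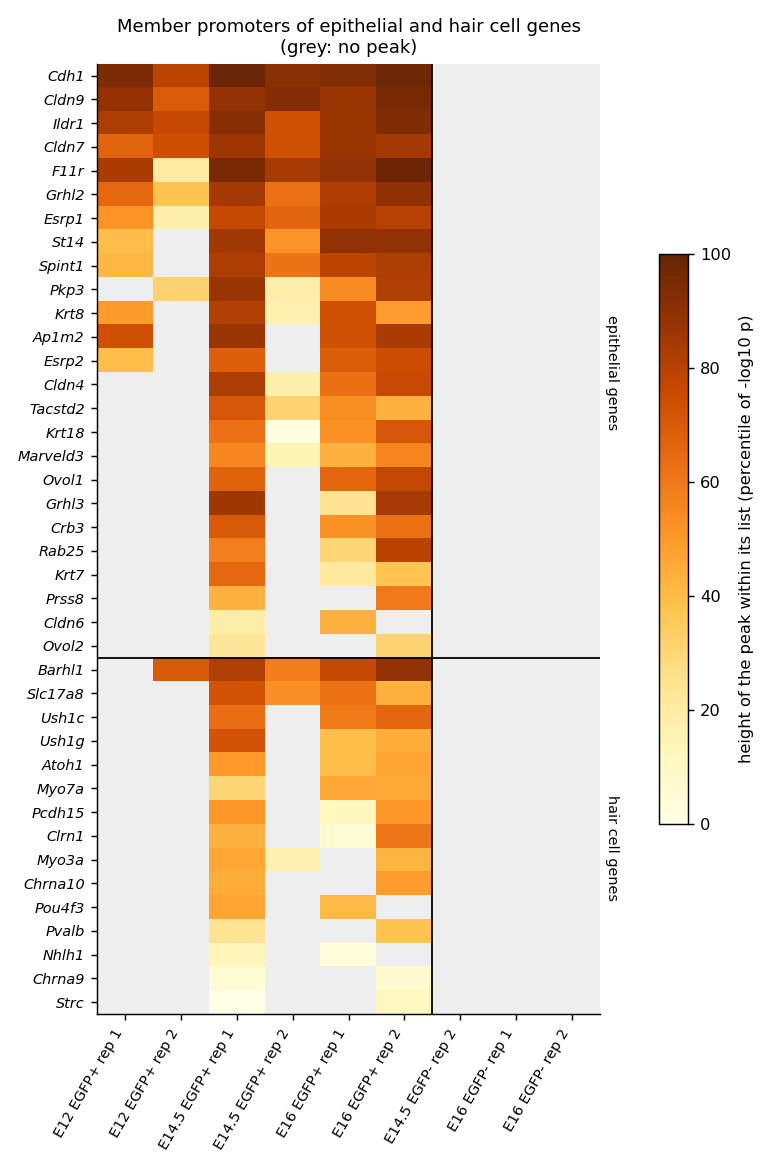
Heat map of the within-list percentile of the peak (colour; grey where the list has no peak) at the member promoter of each epithelial and hair cell gene (rows; for genes with several members, the one in most lists) in the 6 Sox2-EGFP+ and 3 Sox2-EGFP- lists (columns). *Cdh1*, *Cldn9*, *Ildr1* and *Cldn7* are dark in all 6 Sox2-EGFP+ lists, most hair cell genes have peaks in 2 or 3 lists, and the Sox2-EGFP- columns are empty because the rule requires it.

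Hair cell genes had the next largest share among the 12 hand-made gene lists, on lower peaks. Of 39 annotated hair cell genes, 29 had at least 2 Sox2-EGFP+ promoter peaks. A member promoter was found for 15, which are 38.5% of the 39 and 51.7% of the 29. Of these 15, 12 had no promoter region with a Sox2-EGFP- peak. The transcription factor gene *Barhl1* was the highest of them (chr2:28771361-28771937), with no peak in E12 replicate 1 and percentiles of 70.2 in E12 replicate 2, 82.0 and 58.0 at E14.5 and 76.4 and 88.9 at E16. *Slc17a8*, which encodes the vesicular glutamate transporter of inner hair cells, had no E12 peak and stood at 72.6 and 52.7 at E14.5 and 62.3 and 43.2 at E16 (chr10:89083762-89084358). The remaining 13 had peaks in 2 or 3 lists, and 4 of the 15 regions rested on the 2 longest lists, E14.5 replicate 1 and E16 replicate 2, alone.

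The hair cell members were not all at the main start site of their gene. For *Atoh1*, the factor that starts hair cell differentiation, the member lay upstream of the start site (chr6:64677779-64678283), with percentiles of 49.9 in E14.5 replicate 1 and 38.8 and 46.7 at E16, and the region across the start site was shared with all 3 Sox2-EGFP- lists. *Pou4f3*, a factor that hair cells need to survive, had its member across the start site (chr18:42553883-42554531), at percentiles of 46.5 in E14.5 replicate 1 and 40.8 in E16 replicate 1. The stereocilia genes *Ush1c*, *Ush1g*, *Myo7a*, *Pcdh15*, *Clrn1*, *Myo3a* and *Strc* and the receptor genes *Chrna9* and *Chrna10* had members in 2 or 3 lists. Of the 15 hair cell regions, 11 reached across a start site, and those of *Myo7a* and *Chrna9* did not. *Pcdh15* had another promoter region that was shared with all 3 Sox2-EGFP- lists. *Ush1c* stood at 63.6 in E14.5 replicate 1 and at 59.5 and 65.3 at E16 (chr7:53493773-53494102), whereas *Strc* stood at 0.3 and 11.4 in its lists (chr2:121206539-121206805). *Cdh23*, *Tmc1*, *Tmc2*, *Otof* and *Espn* were not members: the first 3 had no promoter region and the last 2 had shared regions.

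With all peaks counted, the genes that define prosensory identity had members about as often as other genes with Sox2-EGFP+ promoter peaks. Their share in the shortened lists, given below, was further from that of all genes. Of 20 such genes, all with at least 2 Sox2-EGFP+ promoter peaks, 3 (15.0%) had a member, near the 16.1% of all such genes, and 17, *Sox2*, *Isl1*, *Eya1*, *Jag1* and *Prox1* among them, had only promoter regions with Sox2-EGFP- peaks. The name prosensory therefore rests on the sort, not on these markers. *Gata3*, a factor required for the prosensory domain, had 2 members. Its region at chr2:9799967-9800614 had peaks in all 6 lists (percentiles 52.1, 7.2, 56.0, 52.0, 52.5 and 54.3), the one at chr2:9810896-9811670 in 5, and a shared region lay between them. The member of *Pax2*, an early otic factor, stood at 74.8 and 34.9 at E14.5 and 18.2 and 44.0 at E16 (chr19:44830066-44831797). That of the Notch target *Hes5* stood at 61.4 in E14.5 replicate 1 and at 56.5 and 77.4 at E16 (chr4:154334694-154335209).

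Other gene groups had smaller shares, to be read beside the 10.4% of all autosomal genes. Supporting cell and tectorial membrane genes had a member for 7 of 27 genes (25.9%), with the tectorial membrane gene *Otog* in all 6 lists. Notch pathway genes had 6 of 29 (20.7%), of which *Dll1*, *Dll3* and *Dll4* are ligands, and synapse genes 10 of 44 (22.7%). Of the genes of other cell types, neuron genes had 7 of 20 (35.0%), with *Neurog1*, *Neurod1* and *Neurod4* among them, glia genes 3 of 12 (25%), nonsensory duct genes 3 of 19 (15.8%), mesenchyme genes 3 of 22 (13.6%), endothelium genes 2 of 15 (13.3%) and macrophage and blood genes 1 of 20 (5.00%). Of the genes with at least 2 Sox2-EGFP+ promoter peaks, members were 46.7% of 15 neuron, 31.8% of 22 supporting cell and 30% of 10 glia genes. They were 28.6% of 7 endothelium, 25% of 12 nonsensory duct and 23.8% of 42 synapse genes. Of 26 Notch pathway genes with such peaks 23.1% had a member, and of 16 mesenchyme genes 18.8%, beside 16.1% of all such genes. The share of mesenchyme genes lay near its background on either count. Of the macrophage and blood genes, 18 had no promoter region in any list. Whether neurons or glia in the sort contributed to their members was not tested; for the glial gene *Sox10* the percentiles were 23.4 in E12 replicate 1, 18.2 in E14.5 replicate 1 and 31.1 and 18.5 at E16. In a peak from sorted cells, a larger share of cells with open chromatin and a more accessible promoter in each cell cannot be told apart.

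The list shares were recomputed with the longer lists cut, because the Sox2-EGFP+ lists differ in length by far more than the Sox2-EGFP- lists. The E12 lists, with fewer than 20000 peaks, stayed whole and shorter than the rest. With only the 20000 highest peaks of each list, 586 regions met the rule and 2.74% of all autosomal genes had one. Epithelial genes then had 19 of 35 (54.3%), hair cell genes 2 of 39 (5.13%; *Barhl1* and *Slc17a8*), neuron genes 1 of 20 and supporting cell genes 3 of 27, and glia, mesenchyme, endothelium and macrophage genes had 0. Prosensory genes had 4 of 20 (20%), *Sox2* among them, the next largest share after epithelial genes. This cut also took the lowest peaks from the Sox2-EGFP- lists, which hold 23302 to 23899. *Sox2*, whose promoter region was shared with all 3 of them with all peaks, was a member only after the cut. Without the 2 longest lists, epithelial genes had 17 of 35 (48.6%) and hair cell genes the same 2, beside 2.66% of all genes. Prosensory genes then had 3 of 20 (15%), *Sox2*, *Gata3* and *Pax2*, again the next largest share. With all peaks, the *Sox2* promoter region and that of *Epcam*, also counted here, had peaks in all 3 Sox2-EGFP- lists. Leaving out Sox2-EGFP+ lists removes no Sox2-EGFP- peak. The members of these genes here are thus pieces of regions that were merged before, and do not show promoters without Sox2-EGFP- peaks.

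**Figure D2:**
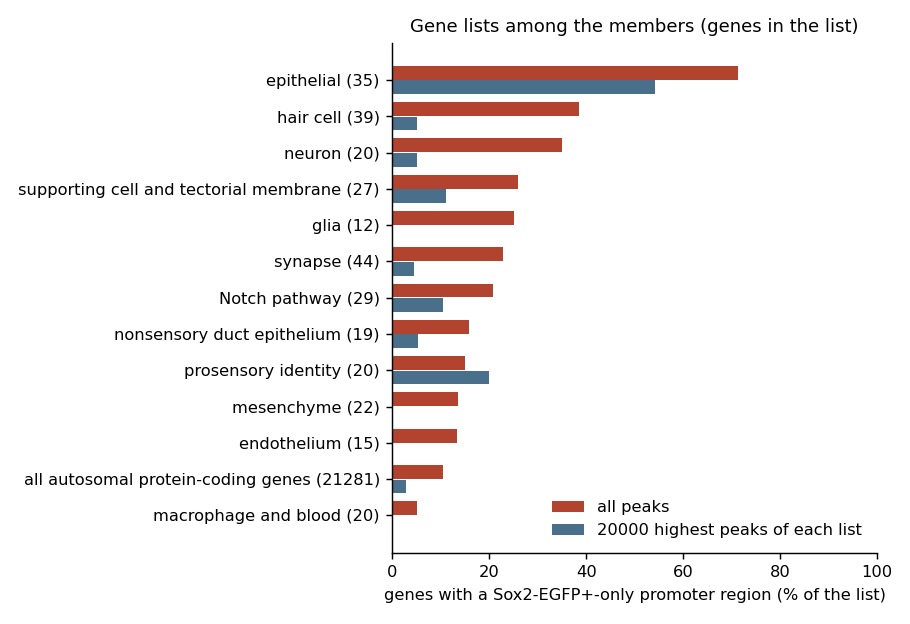
Bars give the percent of genes of each list (number of annotated autosomal genes in brackets) with a Sox2-EGFP+-only promoter region, with all peaks and with the 20000 highest peaks of each list. Epithelial genes stand at 71.4% and 54.3%, hair cell genes at 38.5% and 5.13%, and all autosomal protein-coding genes at 10.4% and 2.74%.

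The 10 members that ranked first by the number of lists and mean percentile all had peaks in the 6 Sox2-EGFP+ lists. Ahead of *Cdh1* stood *Ttll10*, a glycylase of the tubulin tyrosine ligase-like family (chr4:155433374-155434330; percentiles 98.9, 84.7, 96.5, 96.8, 96.1 and 95.8), and *Myo10*, an unconventional myosin of filopodia (chr15:25687841-25688967; 99.3, 87.1, 98.0, 90.6, 91.8 and 94.6). Others were *Cnksr1*, *Cldn9*, *D630013G24Rik*, *Ildr1*, *Otog* and the polarity kinase gene *Prkcz*. Fold enrichment over local background at *Cdh1* was 8.04 and 6.20 at E12, 11.9 and 6.02 at E14.5 and 10.1 and 10.3 at E16.

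Across all members, peaks were lower than at shared promoter regions in every Sox2-EGFP+ list. The median percentile of member peaks lay between 31.1 (E14.5 replicate 2) and 45.6 (E14.5 replicate 1), and that of shared regions between 57.3 (E12 replicate 2) and 87.9 (E16 replicate 2). Presence followed the length of the list: 243 and 96 members had a peak in E12 replicates 1 and 2, 2360 and 574 at E14.5 and 1586 and 2169 at E16, in lists of 13817, 7577, 66332, 22962, 39314 and 65870 peaks. Of all members, 2155 (90.7%) had peaks in both longest lists, 696 (29.3%) in these alone and 3 in neither. The lists hold no read counts, and the read depths and shares of reads in peaks that the study states entered no count here. In the study, that share is highest in the 2 samples with the longest lists, above every Sox2-EGFP- sample. E14.5 Sox2-EGFP+ replicate 2 has more reads than replicate 1 but a smaller share of them in peaks. The part of depth and of this share in these counts was not tested.

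**Figure D3:**
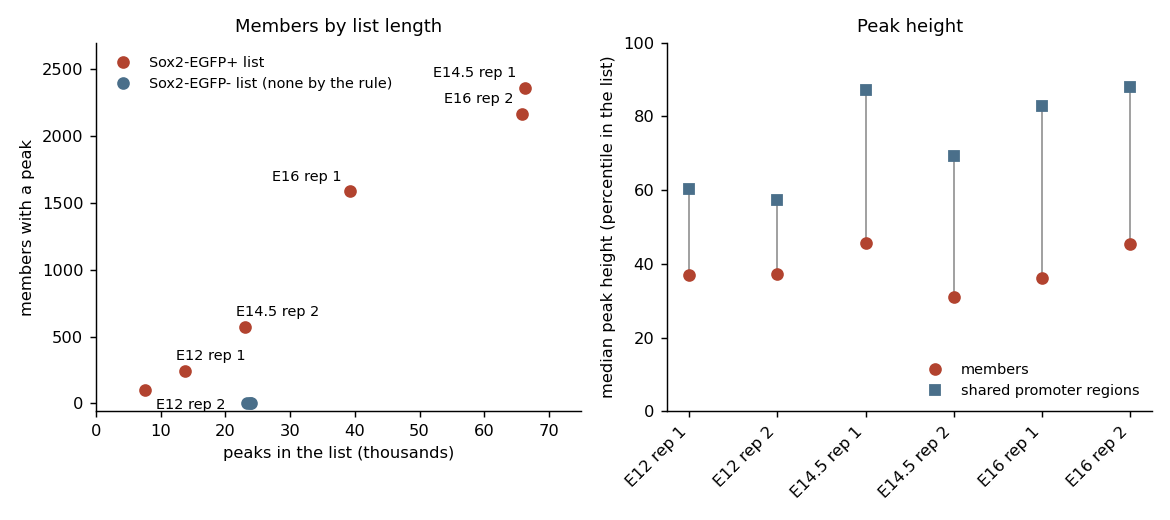
Left, the number of members with a peak against the number of peaks in each list; right, the median within-list percentile of member peaks and of shared promoter regions in each Sox2-EGFP+ list. Members with a peak run from 96 in the shortest to 2360 in the longest list, and member medians lie below shared medians in all 6 lists.

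Promoters with a peak in more Sox2-EGFP+ lists were less often without a Sox2-EGFP- peak. Of promoter regions with 2 Sox2-EGFP+ lists, 86.0% (895 of 1041) were members, and the share was 44.8% with 3 lists (933 of 2082), 12.6% with 4 (364 of 2878), 3.47% with 5 (127 of 3662) and 1.31% with all 6 (58 of 4443). Just inside the rule, the 895 members with 2 lists had a median percentile of 25.9 where they had a peak. Just outside it there was no promoter region with 1 Sox2-EGFP+ list, and no shared region had a single Sox2-EGFP- list, because the deposited lists keep only peaks found again in a second sample of that cell type. The nearest shared regions, 858 with 2 of the 3 Sox2-EGFP- lists, had a median percentile of 52.7 in the Sox2-EGFP+ lists, beside 73.7 for the 10871 with all 3. A peak called in 1 Sox2-EGFP- sample alone would have been dropped before deposit, and the Sox2-EGFP+ peaks had 6 samples in which to recur against 3.

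By stage, few members had an E12 peak, and that share moved with the lists used. An E12 peak in either replicate was present at 273 members (11.5%) and at 8181 shared regions (69.8%), an E14.5 peak at 2366 members (99.5%) and an E16 peak at 2354 (99.0%). The E12 share of 11.5% became 4.05% without E12 replicate 1, 17.5% without E14.5 replicate 1 and 42.5% with the 20000 highest peaks of each list. Peaks in both replicates were present at 66 members at E12, 568 at E14.5 and 1401 at E16. No member had both E12 peaks and none later, 16 had both E14.5 peaks alone (first *Bscl2* with *Gng3*, then *Gnas*, *Ripk3*, *Akap13* and *Gm10129*) and 11 had both E16 peaks alone (first *Ngef*, *Zfp423*, *Tagap1*, *Prmt8* and *Neurod6*). These are presences in lists of unequal length, which the rule used, so no test was made between stages.

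Of the 66 members with peaks in both E12 lists, 58 had peaks in all 6 lists. Besides the genes named, these included the P-cadherin gene *Cdh3*, the transcription factor gene *Tbx2*, *Shroom3*, which shapes epithelial sheets, and *Cdkn1a*, a cell cycle inhibitor. *Shroom3* stood low at E12, at 2.4 and 8.4. The *Cdkn1a* region held no start site and lay 1151 bp from a region with a Sox2-EGFP- peak. The other 8 of the 66 were *Triobp*, *Nedd4l*, *Dffa*, *AA986860*, *Bmpr1b*, *Kbtbd5*, *Acot5* and *Slc15a5*, and 7 of them lacked E14.5 replicate 2. *Triobp*, an actin bundler of hair cell rootlets and a deafness gene, was the highest of them: its region (chr15:78817152-78817804) stood at 97.3 and 79.6 at E12 and 79.7 and 81.8 at E14.5, had no peak in E16 replicate 1 and stood at 62.7 in E16 replicate 2.

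Members had fewer CpG dinucleotides than shared promoter regions. The ratio of observed to expected CpG within 200 bp of the summit of the peak had a median over members of 0.44, 0.45, 0.40, 0.43, 0.48 and 0.40 in E12 replicates 1 and 2, E14.5 replicates 1 and 2 and E16 replicates 1 and 2, and a median over shared regions between 0.81 and 0.82 in all 6. The difference was -0.38 ± 0.028 (SD, n = 6 lists; lower in 6 of 6; two-sided exact sign-flip permutation test, p = 0.03125, adjusted over 2 tests 0.03125, the smallest value that 6 lists allow). Lists of different samples hold many of the same regions, so this p covers the spread between lists and not that between promoters. At the highest summit, 1685 members (70.9%, 95% exact binomial interval 69.0 to 72.7) had a ratio under 0.6, against 1807 shared regions (15.4%, 14.8 to 16.1); these and later intervals cover counting error only. The difference was present at each number of lists, with medians of 0.31 and 0.47 at 2 lists and of 0.46 and 0.83 at all 6.

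Epithelial members spanned the range of CpG content. Their median ratio was 0.67, below the 0.81 of shared regions, and 9 of the 26 were under 0.6. *Prss8* had 0.19, *Cldn9* 0.20 and *Krt8* 0.31, whereas *Cdh1* had 0.69 and *Grhl2* 0.80. The median of hair cell members was 0.29. *Otog*, printed above without a CpG dinucleotide, had 0.03 in its summit window.

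Summits of members lay farther from start sites. The median distance from the summit to the nearest protein-coding start site was 146, 123.5, 136, 152.5, 116.5 and 140 bp over members in the 6 lists in the same order, and 98, 91.5, 60, 79, 57 and 66 bp over shared regions. The mean difference was 60.5 bp ± 17.7 (SD, n = 6 lists; farther in 6 of 6; two-sided exact sign-flip permutation test, p = 0.03125, adjusted 0.03125). As for CpG, this p is the smallest that 6 lists allow. Because the lists hold many of the same regions, it does not cover the spread between promoters. Of the members, 1695 (71.3%, 69.4 to 73.1) reached across a start site and 546 (23.0%) had their summit over 500 bp from one, against 11387 (97.1%) and 649 (5.53%) of the shared regions. Members were also narrower, with a median width of 582 bp against 1063 bp, and 63 (2.65%) lay in the windows of 2 or more genes against 10.5% of shared regions.

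**Figure D4:**
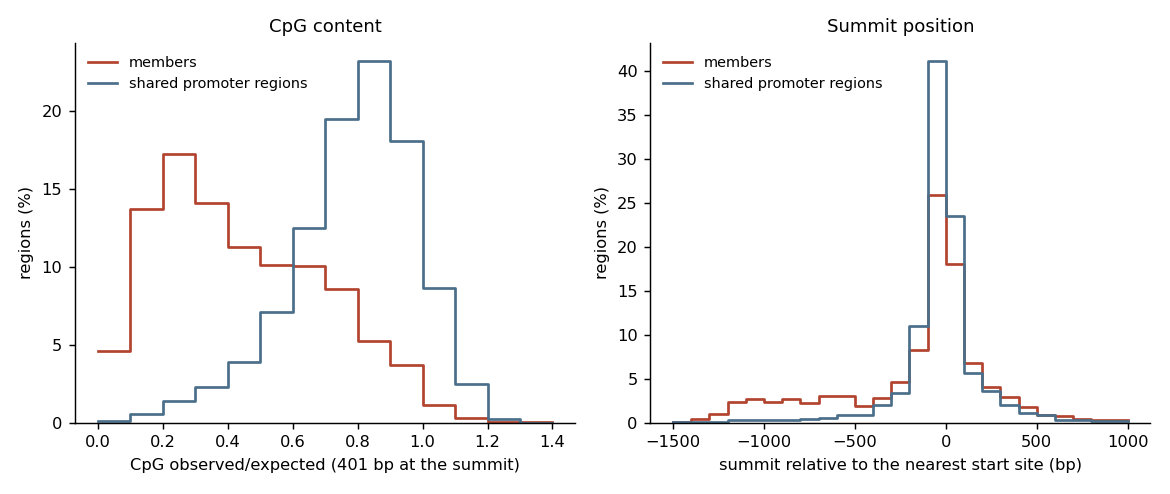
Left, the distribution of observed to expected CpG within 200 bp of the highest summit; right, the distribution of that summit relative to the nearest protein-coding start site (negative is upstream), each as percent of 2377 members or 11729 shared promoter regions. Member CpG peaks near 0.2 to 0.3 and shared CpG near 0.8 to 0.9, and members have a shoulder more than 500 bp upstream.

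Among the short motifs searched on both strands of the windows within 200 bp of the summit, the E-box CAGGTG of Zeb and Snai factors was frequent in epithelial members. It was in 24 of the 26 member regions of epithelial genes (92.3%) and in 12 of 15 of hair cell genes (80%), beside 43.6% of all members (41.6 to 45.6), 25.7% of shared regions (24.9 to 26.5) and 28.7% of all 14106 promoter regions. Among the 10 shared promoter regions of epithelial genes it was in 7. A match is a run of letters and not a bound site. The *Cdh1* stretch printed above holds it 3 times, and those of *F11r*, *St14* and *Krt8* once each.

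Motifs of developmental factors were also more frequent in members. AGATAA, a motif of Gata factors, was in 12% of members and 4.50% of shared regions, Sox (ACAATG) in 14.6% and 7.02%, AP-1 (TGANTCA) in 9.26% and 4.09%, Tead (GGAATG) in 21.0% and 12.8%, Atoh and Neurod (CAGATG) in 21.3% and 12.4% and the core promoter element TATAAA in 8.92% and 4.88%. Motifs of general promoter factors were less frequent: Sp and Klf (GGGCGG) in 42.6% and 79.1%, Ets (CCGGAA) in 13.0% and 31.8%, Nrf1 (GCGCATGC) in 1.89% and 5.58%, CRE (TGACGTCA) in 1.22% and 3.81% and Nfy (CCAATC) in 15.0% and 22.7%. Ebf (CCCNNGGG), with 26.3% and 28.5%, and Rfx (GTTGCC), with 17.8% and 16.2%, had overlapping intervals, as had Grhl (AACCGGTT), in 13 members, 0.547%, against 0.281%.

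Since several of these motifs contain CG, the shares were also taken over windows with a CpG ratio under 0.6 only. The E-box then stood at 43.4% and 29.4%, Gata at 14.7% and 7.97%, Sox at 17.9% and 11.2%, AP-1 at 10.9% and 6.25% and Tead at 23.8% and 19.4%, each with intervals that did not overlap. The same held in the other direction for Sp and Klf (29.7% and 56.3%), Ets (11.1% and 19.0%), Nfy (15.3% and 24%) and CRE (1.13% and 2.99%). The intervals overlapped for Atoh and Neurod (24.9% and 21.5%), TATAAA (10.1% and 7.97%), Nrf1 (1.25%, 0.773 to 1.90, and 2.05%, 1.45 to 2.81) and Grhl (0.475% and 0.498%).

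**Figure D5:**
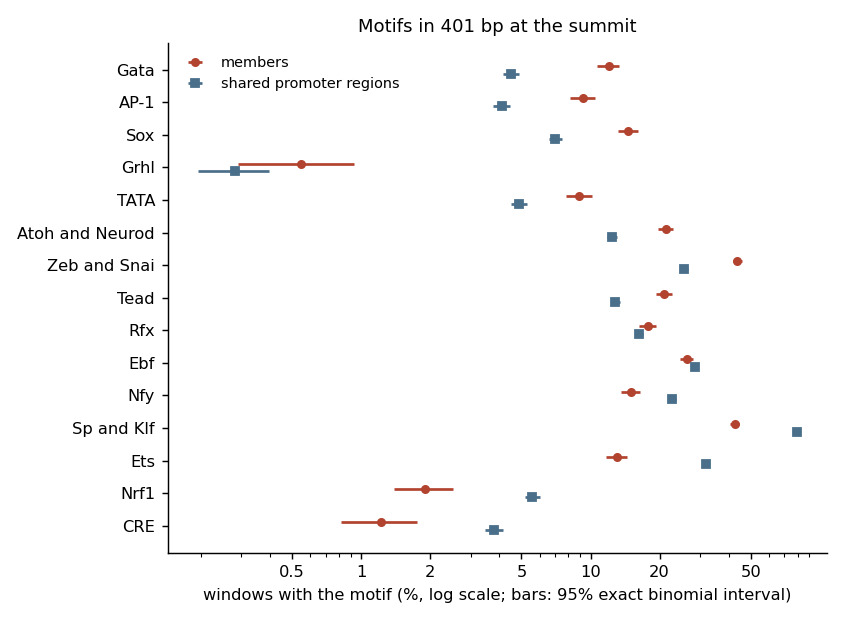
Percent of windows (200 bp either side of the summit) with each motif on either strand (log axis, with 95% exact binomial intervals) in 2377 members and 11729 shared promoter regions, ordered by the ratio of the 2 shares. Gata, AP-1 and Sox are at the top, with 12%, 9.26% and 14.6% of members, and Ets, Nrf1 and CRE at the bottom.

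Around the members, the nearest region with a Sox2-EGFP- peak lay at a median of 13107 bp, and for 370 members (15.6%, 14.1 to 17.1) it lay within 1000 bp; the next such region lay within 1000 bp of 4.42% of shared regions. Another promoter region of the same gene carried Sox2-EGFP- peaks for 737 of the 2213 member genes (33.3%), as for *Gata3* and *Atoh1*. Within 50 kb of the summit, members had a mean of 2.97 distal regions open in Sox2-EGFP+ cells only, against 2.59 around shared regions, and 2136 members (89.9%) had at least 1, against 86.6%. Distal regions with a Sox2-EGFP- peak were also more numerous around members, with a mean of 0.752 against 0.629 and at least 1 for 47.5% against 40.9%. Distal regions were more often without a Sox2-EGFP- peak than promoters, at 84.6% of 50111 regions.

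Neighbouring genes were members together in 79 runs of at least 3 in the order of genes with a Sox2-EGFP+ promoter region, and these held 262 genes, 11.8% of the member genes. Some runs would form in any order of the genes, and how many was not computed, so the count does not show clustering. In some runs 1 region counts for several genes, as for 4 histone genes with 2 regions on chromosome 13. The longest, with 7 genes each, were a group of *Gm* gene models on chromosome 14, which are near copies that alignment may not tell apart, and the class II antigen genes *H2-Ab1*, *H2-Aa*, *H2-Eb1* and *H2-Eb2* with their neighbours on chromosome 17. A run of 6 on chromosome 2 went from *Chrm4* to *Gyltl1b* and included *Mdk*. A run of 5 on chromosome 7 held *Ano1*, *Gm10152* and the growth factor genes *Fgf3*, *Fgf4* and *Fgf15*. By family, 9 of 19 Wnt genes, 9 of 20 Fgf genes, 9 of 26 claudin genes and 24 of 92 potassium channel genes had a member, beside 10.4% of all autosomal genes. Of the genes with at least 2 Sox2-EGFP+ promoter peaks these are 56.2% of 16 Wnt, 50% of 18 Fgf, 50% of 18 claudin and 34.3% of 70 potassium channel genes, beside 16.1% of all such genes. Keratins had 4 of 51, or 57.1% of the 7 with such peaks, and 44 keratin genes had no promoter region. These families were picked among many after their values were seen, as were the Wnt members, *Wnt3*, *Wnt3a*, *Wnt5a*, *Wnt5b*, *Wnt6*, *Wnt7a*, *Wnt7b*, *Wnt8a* and *Wnt11*.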

How the data were processed

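Reads had been trimmed (Trim Galore) and aligned to mm9 (Bowtie2) by the authors, with duplicate and mitochondrial reads removed (Picard, SAMtools). Peaks came from MACS2 for every sample, and only those found again in a second sample of that cell type were kept (BEDOPS). The deposited columns are the fold enrichment (a ratio to local background), the −log10 p and −log10 q of MACS2, and a score, the integer part of 10 times −log10 q, which was not used. Versions are not given in the sources used here. Here peaks were merged with Python 3.11.15 and NumPy 2.4.6, promoters were taken from GENCODE vM1 and sequence from the mm9 genome, and intervals from SciPy 1.17.1. Merging, overlap, motif search and the sign-flip test were checked on simulated data. Per list, the median of members minus that of shared regions was tested by an exact sign-flip permutation test over 64 sign patterns. For Sox2-EGFP+ cells a replicate is 1 litter. Named genes are the 10 members in most lists, members of the gene lists, the first 5 of each stage-only class, members in both E12 lists and gene runs. The members, gene lists and motifs were chosen with earlier results of these data known. X and Y were left out by the rule. Alternatives were another −log10 q, list length, merging distance, overlap, window, minimum of lists, batch, stages and each list left out. Some items withheld for evaluation are not reported here.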

Additional observations from a re-analysis of the deposited data

Results flagged for a closer look

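The rule covers autosomes only. On X and Y, 90 of 491 promoter regions with peaks in at least 2 Sox2-EGFP+ lists had no Sox2-EGFP- peak (18.3%, 95% exact binomial interval 15.0 to 22.0), beside 16.9% on the autosomes; this was singled out because it is signal outside the data used above. No group has more than 2 samples, so no sample was checked for standing apart within its group.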

How the results depend on the processing

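No paired analysis was possible because members have no value in Sox2-EGFP- samples. The 2377 members numbered 586 with the 20000 highest peaks of each list, 1482 with 3 or more Sox2-EGFP+ lists, 565 without the 2 longest lists, and 1499 (without E14.5 Sox2-EGFP+ replicate 1) to 2382 with each list left out in turn. The share of promoter regions without a Sox2-EGFP- peak, 16.9%, was 15.0% at a −log10 q of at least 5, 5.25% with the 20000 highest peaks, 18% with 50% of the region in the window, 14.9% with 500 bp upstream, 11.3% with 3 or more lists, 15.9% in batch 2 alone, 5.16% without the 2 longest lists, 14.8% without the 3 lists with a contradicting tag, and 11.5% to 16.9% with each list left out. The share of members with an E12 peak, 11.5%, was 5.93% at a −log10 q of at least 5, 42.5% with the 20000 highest peaks, 17.9% with 3 or more lists, and from 4.05% (without E12 replicate 1) to 17.5% (without E14.5 Sox2-EGFP+ replicate 1). The CpG difference was -0.39 in batch 2 alone and -0.39 for E14.5 and E16 alone, and -0.39 to -0.35 with each list left out. The start site distance differed by 60.3 bp, 70.8 bp and 46.8 to 66.2 bp in the same order. These fewer lists allow no p under 0.0625 (5 lists) or 0.125 (4 lists), so the loss of the call follows from their number. Hair cell genes with a member, 15, were 2 with the 20000 highest peaks and 2 without the 2 longest lists, and 9 (without E14.5 Sox2-EGFP+ replicate 1) to 15 with each list left out; epithelial genes with a member numbered 17 (without the 2 longest lists) to 25 over the same alternatives. Batch 1 holds 1 list of each type, so the rule cannot be applied in it. The last alternatives, those on the 2 longest lists, the contradicting tag, the epithelial and hair cell genes and the CpG-poor windows, were chosen after seeing the data. Depth limits were not computed, since the lists hold no reads and the depths that the study states were not used here.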

Other observations

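In the opposite direction, 125 promoter regions had peaks in at least 2 Sox2-EGFP- lists and in no Sox2-EGFP+ list. From the lists used above they included the promoters of the mesenchyme genes *Col3a1* and *Prrx1*, the endothelial gene *Emcn* and the Notch receptor gene *Notch4*. A second region of *Notch1*, beside its shared promoter, was also among them, and no region of an epithelial or hair cell gene was.

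*Otog* and *Ush1c*, which lie side by side on chromosome 7, both had member promoters, and the nearest regions with a Sox2-EGFP- peak lay 139574 and 137374 bp from them. The members with the Grhl consensus included *Ovol1*, itself an epithelial regulator, in 3 lists, and *Arhgef19* in all 6.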
